A study of Mus musculus with 5 samples.

Results

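The Id genes and the E protein genes form the antagonist and partner sides of one regulatory system for myogenic and neurogenic transcription factors. The 4 Id genes (Id1, Id2, Id3 and Id4) and the 3 E protein genes (Tcf3, Tcf4 and Tcf12) were taken by their gene symbols in the array's annotation, whatever their values. Together these 7 genes had 16 of the 45281 probes on the array. Of the 16 probes, 12 met the detection criterion (a detection p under 0.05 in 2 or more tumours), and each of the 7 genes kept at least 1 probe. Tests covered the 10474 genes that met the same criterion. Levels of the 5 tumours are normalized log2 signals, and each difference is MyoD+/- minus MyoD+/+.

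E proteins are basic helix-loop-helix (bHLH) factors made in most tissues. They pair with tissue-restricted bHLH factors such as MyoD, Atoh1 or NeuroD1, and the pair binds short DNA motifs called E-boxes. Id proteins have the helix-loop-helix part but no DNA-binding basic part, so an E protein held by an Id protein cannot bind DNA. In the nervous system Id genes are known for holding progenitors and glia in an undifferentiated state, and they are classical targets of bone morphogenetic protein (BMP) signalling.

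The tumours were end-stage medulloblastomas, cancers of the cerebellum, from mice carrying SmoA2, an activating form of the hedgehog pathway component Smoothened. Of the 5, 2 came from MyoD+/-;SmoA2 mice, which have 1 intact copy of Myod1 (MyoD+/- tumours 1 and 2), and 3 from MyoD+/+;SmoA2 mice with both copies (MyoD+/+ tumours 1 to 3). Every tumour carried SmoA2, and no tissue without it was measured. Not given in the sources used here are the promoter that drives SmoA2, the age and sex of the mice and whether each tumour came from its own mouse. The tests therefore measure the spread between these tumours, which may in part be technical. Each tumour was hybridised to 1 Illumina bead array with 1 colour, and the number of arrays limits the precision.

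Between 37.0% and 39.9% of probes were detected per array. MyoD+/+ tumour 2 had the fewest detected probes and the lowest median signal (133.6, against 145.2 to 148.1 in the other 4 tumours). Of 14 markers of granule neuron precursors, the cells from which hedgehog tumours of the cerebellum arise, 9 were tested and Atoh1, Pax6, Gli1, Mycn and Boc were detected on 0 arrays. The median level of the 9 tested was 11.74 and 11.40 in MyoD+/- tumours, against 11.44, 11.44 and 10.98 in MyoD+/+ tumours. Of these 9, 6 were higher and 3 lower in MyoD+/- tumours (median difference 0.03). Myod1 itself stood at 6.31 and 6.67 in MyoD+/- tumours, against 7.25, 6.38 and 7.08 in MyoD+/+ tumours (-0.41 ± 0.28, SE).

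Promoter sequence was read for the Id genes that the RefSeq table (build GRCm38.p6) holds, because the E-box is the site that E proteins and their partners bind. The opposite signs of the Id2 and Id3 differences were known when this was done, but neither difference passed the test. A link between promoter letters and these differences was not tested. Entries were read for 5 of the 7 genes, and Id1 and Tcf4 are named only. The 250 bases before the start site are shown 5′ to 3′ on the gene's own strand, with any match to the E-box letters CANNTG in capitals. The Id2 stretch is chr12:25096093-25096342 on the minus strand, the Id3 stretch chr4:136143572-136143821 on the plus strand and the Id4 stretch chr13:48260866-48261115 on the plus strand.
Id2: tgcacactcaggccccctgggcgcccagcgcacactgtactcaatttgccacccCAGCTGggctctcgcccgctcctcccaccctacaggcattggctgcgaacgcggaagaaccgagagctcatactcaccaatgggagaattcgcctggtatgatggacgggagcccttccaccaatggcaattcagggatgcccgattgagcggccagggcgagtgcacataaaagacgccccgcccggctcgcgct
Id3: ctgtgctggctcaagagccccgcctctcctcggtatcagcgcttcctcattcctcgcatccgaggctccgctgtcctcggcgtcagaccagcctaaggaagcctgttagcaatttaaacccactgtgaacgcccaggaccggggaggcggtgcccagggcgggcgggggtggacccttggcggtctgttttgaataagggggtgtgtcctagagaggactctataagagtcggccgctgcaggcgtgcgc
Id4: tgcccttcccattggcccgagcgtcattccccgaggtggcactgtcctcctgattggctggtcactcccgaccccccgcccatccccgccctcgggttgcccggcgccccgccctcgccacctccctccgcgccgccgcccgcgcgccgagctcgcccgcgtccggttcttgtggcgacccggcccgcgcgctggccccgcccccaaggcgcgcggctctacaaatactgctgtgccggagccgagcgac

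Id2 had 1 E-box, with the letters CAGCTG, starting 196 bases before the start site, while Id3 and Id4 had 0 in this window. On both strands, CANNTG stood in 66.2% and CAGCTG in 13% of all 32851 promoter windows of the same length, CAGCTG being one form of CANNTG. The letters GGCGCC, a GC-rich element that BMP-activated Smad proteins are known to bind, occurred once in Id2 and once in Id4 and in 9.59% of all windows. For the E protein genes, Tcf3 had 1 E-box (CACTTG, 54 bases before its start) and the 3 start sites of Tcf12 had 1, 1 and 0. A match is a description of the letters only.

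Neither the inhibitors nor the partners passed the genotype test. At an adjusted p under 0.05 (limma), 0 of the 7 were called, against 0% of the 10474 genes, and 0 of the 7 reached an unadjusted p under 0.05, against 5.26% of genes. The second count was not stable, with Id1 near the cut at an unadjusted p of 0.054 (limma). In 10 of 16 alternative settings Id1 had an unadjusted p under 0.05, and in 2 of 16 Id3 had. Several of these settings share the same difference, so they are not separate checks. In the settings that kept both MyoD+/- tumours, 3.57% to 8.39% of all genes reached that p (limma). Id1 and Id3 were lower on average in MyoD+/- tumours and Id2 was higher, with ratios of 0.710, 0.731 and 1.33. Tcf4 and Tcf12 stood within 0.03 log2 units of equality on the probe that stands for each gene. The other detected Tcf12 probes differed by 0.38 and 0.28. In all, 3 of the 7 were lower and 4 higher, with a median difference of 0.03, beside -0.00 over all genes tested. In 1 of the 7 genes, Id1, the 2 groups of tumours did not overlap, against 20.9% of all genes, so the members' share was no higher than that of the array as a whole.

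**Figure D1:**
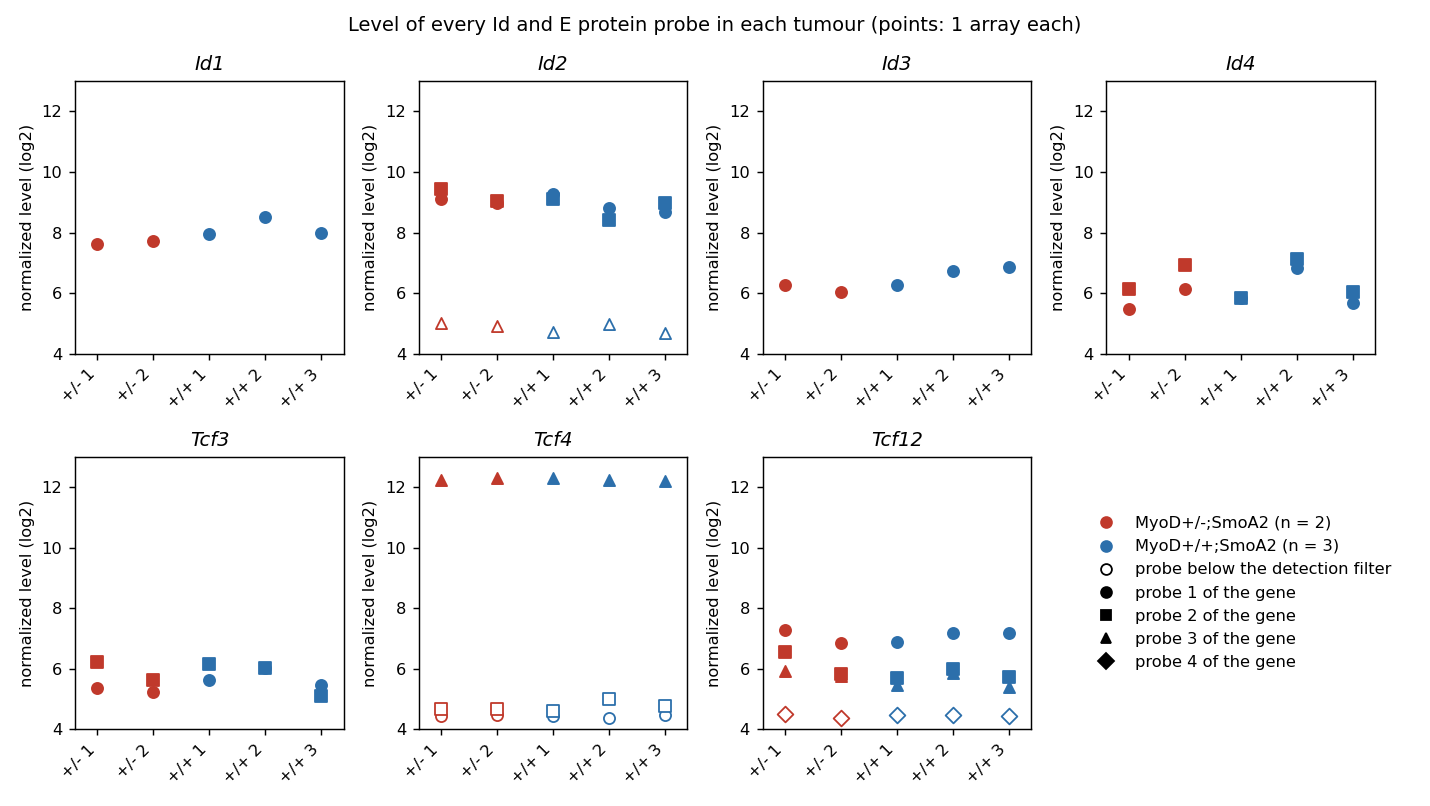
Normalized level (log2, vertical axis) of each of the 16 Id and E protein probes in each tumour, with 1 panel per gene, MyoD+/-;SmoA2 tumours in red at left and MyoD+/+;SmoA2 tumours in blue at right. Open symbols are the 4 probes below the detection filter, and the Id1 points of both MyoD+/- tumours (7.61 and 7.71) sit below all 3 MyoD+/+ points.

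Id1, the family member best known as an immediate BMP target and strongly made in endothelium and neural stem cells, had 1 probe (ILMN_2672190), present above background in every tumour. It read 7.61 and 7.71 in MyoD+/- tumours, against 7.96, 8.51 and 8.0 in MyoD+/+ tumours. Both MyoD+/- tumours were thus below every MyoD+/+ tumour, and MyoD+/+ tumour 2 was the highest. The mean was 7.66 ± 0.07 in MyoD+/- tumours and 8.15 ± 0.31 in MyoD+/+ tumours (SD, n = 2 and 3). The difference was -0.50 ± 0.22 (SE), a ratio of 0.710, with a 95% interval from -1.0 to 0.01 and a limma adjusted p of 0.945. Before normalization its signal was 326.5 and 345.9 in MyoD+/- tumours, against 378.5, 388 and 395.6 in MyoD+/+ tumours, so the groups were also apart there, with a narrower spread among MyoD+/+ tumours. Without MyoD+/+ tumour 2 the difference was -0.32.

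Id3, which shares much of its known expression with Id1, in vessels, meninges and astrocytes, also had 1 probe (ILMN_2687169), detected in all 5 tumours. It stood at 6.28 and 6.05 in MyoD+/- tumours, against 6.27, 6.72 and 6.85 in MyoD+/+ tumours. The groups overlapped by the small margin between MyoD+/- tumour 1 and MyoD+/+ tumour 1. The means were 6.16 ± 0.16 in MyoD+/- tumours and 6.61 ± 0.30 in MyoD+/+ tumours (SD, n = 2 and 3), a difference of -0.45 ± 0.22 (SE) with a 95% interval from -0.97 to 0.06 (limma adjusted p = 0.945). The raw signal was 201.6 and 191.9 in MyoD+/- tumours, against 200.8, 193.5 and 246.3 in MyoD+/+ tumours, where MyoD+/+ tumour 3 alone was apart from the rest. The size depended on the background step: with that step left out, the difference was -0.19.

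Id2, the inhibitor that also binds the retinoblastoma protein and is known from neural progenitors, had 3 probes, of which 2 were detected in all 5 tumours and 1 in 0. The brighter of the detected probes (ILMN_1236868) gave 9.45 and 9.03 in MyoD+/- tumours, against 9.10, 8.41 and 8.99 in MyoD+/+ tumours. Its groups overlapped, since MyoD+/- tumour 2 was below MyoD+/+ tumour 1, and MyoD+/+ tumour 2 was the lowest. On that probe the difference was 0.41 ± 0.26 (SE), with a 95% interval from -0.20 to 1.01 (limma adjusted p = 0.957). The other detected probe (ILMN_1228557) gave 9.10 and 8.97 in MyoD+/- tumours, against 9.28, 8.81 and 8.69 in MyoD+/+ tumours, and a smaller difference of 0.11 ± 0.22 (SE). Both probes were thus higher on average in MyoD+/- tumours, while the highest level on the second lay in MyoD+/+ tumour 1. Without MyoD+/+ tumour 3 the second probe differed by -0.0077, so its sign depended on that tumour. Without MyoD+/+ tumour 2 the difference of the brighter probe was 0.20, and without MyoD+/- tumour 1 it was 0.20.

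Id4, known from neural stem cells and astrocytes, varied more between tumours than the other Id genes on the background-corrected scale only. Its brighter probe (ILMN_2678714) stood at 6.14 and 6.94 in MyoD+/- tumours, against 5.83, 7.11 and 6.03 in MyoD+/+ tumours. The high tumours were thus MyoD+/- tumour 2 and MyoD+/+ tumour 2, 1 of each genotype, and the range of 1.28 log2 units was wider than that of 95.1% of genes or equal to it. The difference was 0.21 ± 0.41 (SE), with a 95% interval from -0.75 to 1.18 (limma adjusted p = 0.987). The other probe (ILMN_1232416) read 5.48 and 6.13 in MyoD+/- tumours, against 5.84, 6.84 and 5.68 in MyoD+/+ tumours. It had the same 2 high tumours but the opposite sign, at -0.32 ± 0.37 (SE). Without background correction the brighter Id4 probe ran only from 7.46 to 8.01, against 8.84 to 9.67 for the brighter Id2 probe and 8.30 to 8.92 for Id1. Its raw signal was 194.1 and 253.7 in MyoD+/- tumours, against 179.6, 218.5 and 191.7 in MyoD+/+ tumours.

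Tcf3, which encodes the E12 and E47 proteins, the first E proteins found to pair with MyoD, was close to background. Its brighter probe (ILMN_2596278) was detected in 4 of 5 tumours, the exception being MyoD+/+ tumour 3. It stood at 6.22 and 5.64 in MyoD+/- tumours, against 6.15, 6.01 and 5.10 in MyoD+/+ tumours, with overlapping groups and a difference of 0.18 ± 0.34 (SE; 95% interval from -0.63 to 0.98, limma adjusted p = 0.987). Its other probe (ILMN_2596277) gave 5.36 and 5.22 in MyoD+/- tumours, against 5.62, 6.02 and 5.45 in MyoD+/+ tumours. On that probe both MyoD+/- tumours were below all MyoD+/+ tumours, and the difference had the opposite sign, at -0.41 ± 0.22 (SE; limma adjusted p = 0.963 over the 18675 probes tested). The raw signals of that probe spanned only 159.1 to 161.9 in MyoD+/- tumours and 164 to 171.1 in MyoD+/+ tumours.

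Tcf4, the E protein gene of developing brain (not to be confused with the Wnt pathway factor of similar name, Tcf7l2), was the most even of the 7. Its detected probe (ILMN_2636463) stood at 12.22 and 12.31 in MyoD+/- tumours, against 12.29, 12.22 and 12.20 in MyoD+/+ tumours. The spread of 0.11 log2 units over the 5 tumours was at the 0.458th percentile of all genes tested. The difference was 0.03 ± 0.16 (SE), with a 95% interval from -0.34 to 0.40 (limma adjusted p = 0.996), which leaves out a 2-fold change in either direction on this scale. Before normalization its signal was 5369.5 and 5816.4 in MyoD+/- tumours, against 5173.6, 3779 and 4874.3 in MyoD+/+ tumours, so the evenness is that of normalized values. The other 2 probes of Tcf4 were detected in 0 tumours.

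Tcf12, which encodes the partner known as HEB, had 4 probes, of which 3 were detected in all 5 tumours and 1 in 0. The brightest (ILMN_1215928) stood at 7.30 and 6.84 in MyoD+/- tumours, against 6.87, 7.20 and 7.18 in MyoD+/+ tumours. MyoD+/- tumours gave both the highest and the lowest of these levels, and the difference was -0.02 ± 0.21 (SE; 95% interval from -0.51 to 0.48, limma adjusted p = 0.996). The probe ILMN_1258340 read 6.55 and 5.82 in MyoD+/- tumours, against 5.68, 6.01 and 5.73 in MyoD+/+ tumours, with a difference of 0.38 ± 0.25 (SE). For ILMN_2722602 the levels were 5.93 and 5.77 in MyoD+/- tumours, against 5.45, 5.85 and 5.40 in MyoD+/+ tumours, with a difference of 0.28 ± 0.21 (SE). MyoD+/- tumour 1 was the highest of the 5 on all 3 probes.

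**Figure D2:**
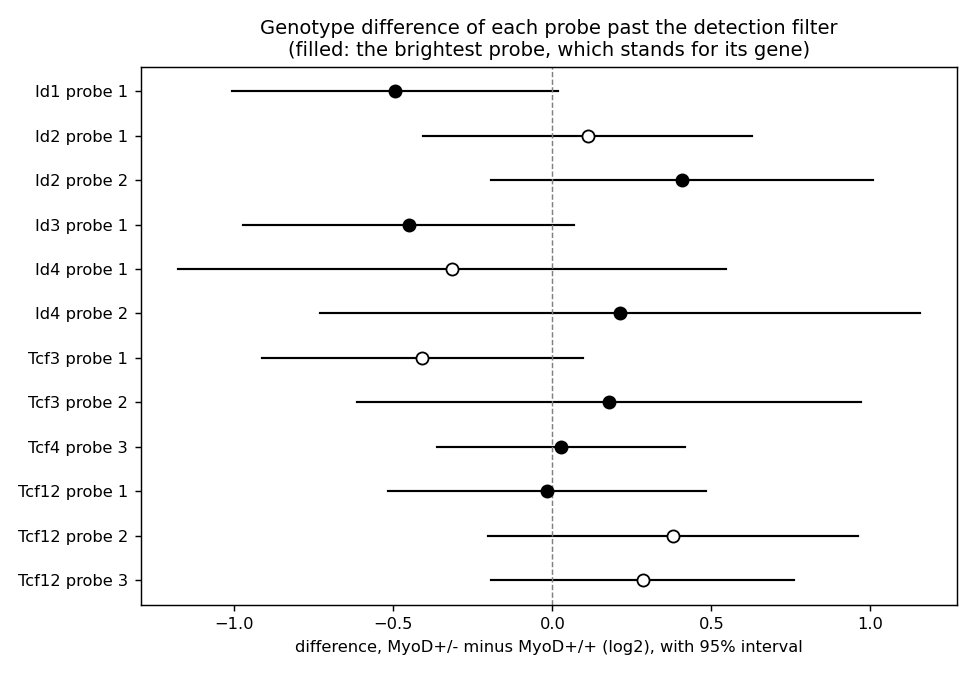
Difference between genotypes (MyoD+/- minus MyoD+/+, log2, horizontal axis) of the 12 probes past the detection filter, with 95% intervals of the limma fit and filled points for the probe that stands for each gene. Every interval includes 0, and Id4, Tcf3 and Tcf12 each have probes on both sides of it.

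The probes of a gene were also compared with each other. At the level of probes, 5 of the 12 were lower and 7 higher in MyoD+/- tumours, 0 passed the test against 0% of the 18675 probes, and in 2 (Id1 and the dimmer Tcf3 probe) the groups did not overlap, against 20.7% of probes. Among the 4 members with more than 1 detected probe, the signs disagreed in 3 (Id4, Tcf3 and Tcf12), and among all 3792 such genes in 50.2%. The root mean square distance between the centred profiles of the paired probes was 0.28 for Id2, 0.29 for Id4, 0.42 for Tcf3 and 0.19 to 0.23 for Tcf12 (log2). For Id4 this was below the variation of either probe over the tumours (0.48 and 0.51). For Tcf3 it was above that of both probes (0.28 and 0.41), for Id2 above that of the dimmer probe (0.21, against 0.33 for the other), and for the brightest Tcf12 probe its distances of 0.23 to each of the others were above its own variation (0.19).

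Pairs of tumours that share a letter in their sample titles were also set side by side, though the labels do not say what the letters mean. For the letter V, MyoD+/- tumour 1 minus MyoD+/+ tumour 2 was -0.90 for Id1, -0.44 for Id3 and 1.04 for Id2. For the letter P, MyoD+/- tumour 2 minus MyoD+/+ tumour 3 was -0.29 for Id1, -0.80 for Id3 and 0.04 for Id2. The signs of these 3 genes thus held in each letter, with sizes that were less alike for Id1 and Id2 than for Id3, whereas Id4 differed by -0.97 in V and 0.90 in P. These are differences between single tumours, with no replicate check.

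**Figure D3:**
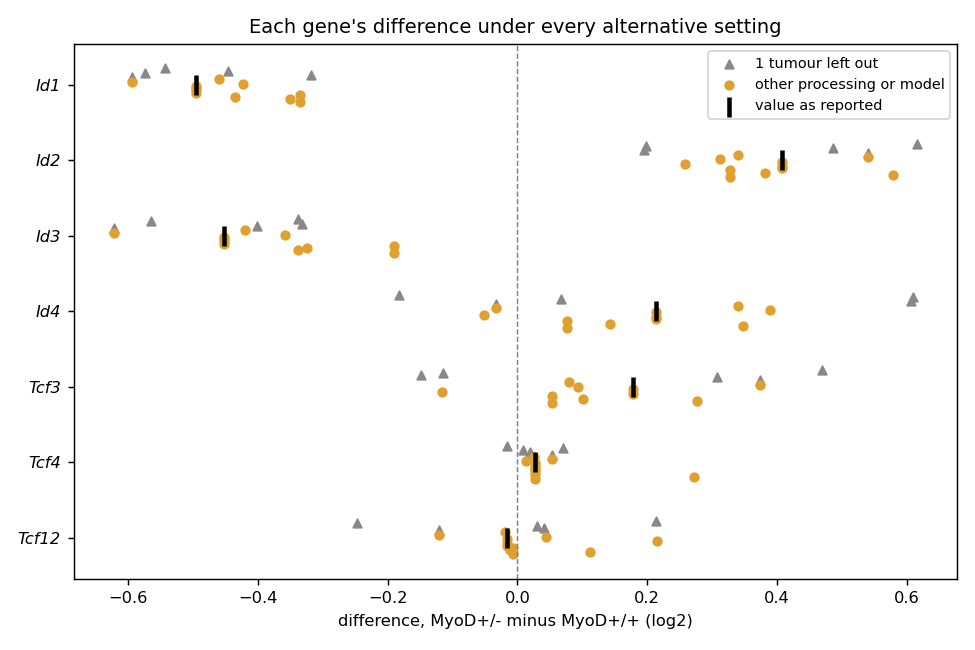
Difference between genotypes (MyoD+/- minus MyoD+/+, log2, horizontal axis) of each gene as reported (bar), under other processing or models (circles) and with 1 tumour left out (triangles). Id1 and Id3 lie below 0 and Id2 above 0 in all 16 alternatives (10 to 11 distinct values per gene other than the reported one), while points of Id4, Tcf3, Tcf4 and Tcf12 fall on both sides.

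Because Id genes are also made by glia and vessel cells, marker lists of the other cells in such a tumour were measured beside them. In bulk tumours, fewer cells of a type and less RNA per cell cannot be told apart. Of 15 astrocyte markers 13 were lower in MyoD+/- tumours (median difference -0.17), and their summed level was 14.08 and 14.29 in MyoD+/- tumours, against 14.51, 14.40 and 14.10 in MyoD+/+ tumours (log2). Of these 15, 0 were without a detected probe. Of 10 tested oligodendrocyte markers, all 10 were lower (median -0.78), with summed levels of 12.09 and 12.25 in MyoD+/- tumours, against 13.27, 13.12 and 12.78 in MyoD+/+ tumours, and Ermn and Aspa were detected on 0 arrays. Among 18 tested endothelial and mural markers, 12 were lower (median -0.08), with summed levels of 11.55 and 11.53 in MyoD+/- tumours, against 11.60, 11.38 and 11.74 in MyoD+/+ tumours, and Abcb1a was detected on 0 arrays. By limma, 0 markers of these lists passed after adjustment, and 4 of 15 astrocyte, 8 of 10 oligodendrocyte and 1 of 18 vessel markers had an unadjusted p under 0.05, beside 5.26% of all genes. The part of these cells in the Id1 and Id3 differences was not tested.

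In each of the other lists some markers were higher and some lower. Of 12 tested microglia and macrophage markers 8 were higher in MyoD+/- tumours (median 0.16), of 7 fibroblast and meningeal markers 3 were higher and 4 lower (median -0.04), and of 10 markers of mature cerebellar neurons 5 were higher and 5 lower (median 0.01). Choroid plexus markers had their lowest summed level in MyoD+/+ tumour 2. That tumour also had the highest normalized Id1 and Id4 and the lowest level on the brighter Id2 probe. Their summed level was 11.24 and 12.73 in MyoD+/- tumours, against 12.71, 10.26 and 13.31 in MyoD+/+ tumours (log2), with 3 of the 6 tested markers higher and 3 lower. Ttr, the transthyretin gene of that tissue and named after its values were seen, stood at 10.40 and 12.41 in MyoD+/- tumours, against 12.39, 5.97 and 13.14 in MyoD+/+ tumours. The list as a whole did not follow Ttr. Otx2 was also lowest in MyoD+/+ tumour 2 (8.90, beside 8.96 in MyoD+/+ tumour 3), but Clic6 was highest there (9.10). Folr1, Kl and Aqp1 were neither highest nor lowest in that tumour. The part of this tissue in the Id values was not tested.

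**Figure D4:**
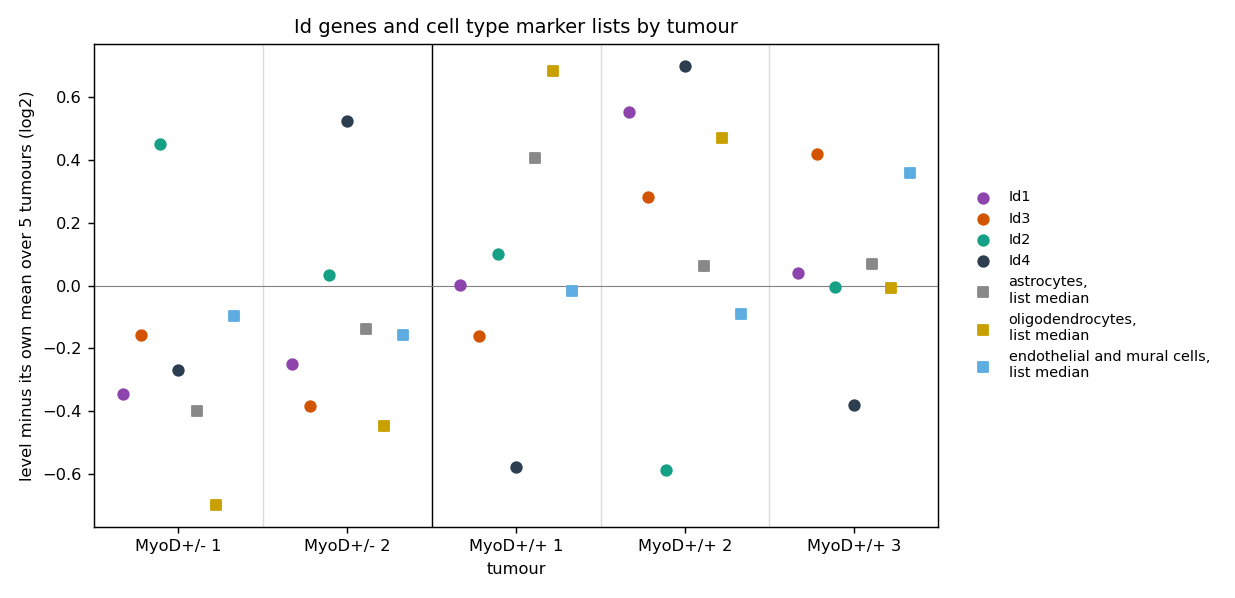
Level of the Id genes (circles) and median level of 3 cell type marker lists (squares) in each tumour, each minus its own mean over the 5 tumours (log2, vertical axis), with MyoD+/- tumours left of the black line. Id1, Id3 and the medians of all 3 lists are below 0 in both MyoD+/- tumours. Id3 is also below 0 in MyoD+/+ tumour 1. The endothelial and mural median is also below 0 in MyoD+/+ tumours 1 and 2, and the oligodendrocyte median slightly so in MyoD+/+ tumour 3. On these normalized levels of each gene's brightest probe, Id2 is lowest and Id1 and Id4 highest in MyoD+/+ tumour 2. The other detected Id2 probe was lowest in MyoD+/+ tumour 3. Before normalization Id1 was highest in MyoD+/+ tumour 3 and Id4 in MyoD+/- tumour 2.

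The genes whose levels over the 5 tumours were most like those of each Id gene were found by the root mean square difference of centred levels among 10473 others. For Id1 they were Vps41, Gpatch2 and Ptpre, at distances of 0.03, 0.03 and 0.05 log2 units. Nearest to Id3 were Idua, Mta1 and Pdgfrb (0.05, 0.06 and 0.06), and nearest to Id2 were Akap13, Shcbp1 and Spast (0.05, 0.06 and 0.06). For Id4 the nearest were farther off, with Engase, Polr3d and Tmem82 at 0.17 each. Matches over only 5 tumours among so many genes are a description and name no shared function or cell type.

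Of 39 tissue-restricted bHLH factors that E proteins pair with, 36 had a probe and 12 of these (33.3%) were tested, beside 55% of all 19057 genes with a probe. In the list, 22 were detected on 0 arrays, and 7 of the tested were higher and 5 lower in MyoD+/- tumours, with a median of 0.05 and 0 past the test. The median was -0.02 without MyoD+/+ tumour 1. Olig3, a factor of dorsal hindbrain progenitors, stood at 8.87 and 8.34 in MyoD+/- tumours, against 7.33, 7.42 and 7.92 in MyoD+/+ tumours. Its groups did not overlap, and its difference was 1.05 ± 0.25 (SE; limma adjusted p = 0.911). It was the 1 gene of the 12 tested at an unadjusted p under 0.05 (limma), beside 5.26% of all genes. Tcf15, a factor of early somites, and Neurod4, a neurogenic factor, stood at 0.32 ± 0.17 and 0.43 ± 0.29 (difference ± SE).

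The list for BMP signalling, which acts upstream of Id genes, held ligands, receptors and Smad proteins but also inhibitors of the pathway. Of the tested genes 0 passed the limma test, against 0% of all genes, and 0 had an unadjusted p under 0.05, against 5.26% of all genes. With so few genes tested, a count of 0 is near that share. Of 31 listed, 28 had a probe and 13 were tested, 3 higher and 10 lower in MyoD+/- tumours. This count mixes genes of opposite function, since the inhibitors Chrd (-0.11) and Smad6 were among the lower. The median was -0.07, which turned to 0.08 with median scaling, a setting that moved the median of all genes to 0.14, and to 0.03 without MyoD+/+ tumour 2, where the median of all genes was 0.00. Bmp4, a ligand, stood at 5.13 and 4.92 in MyoD+/- tumours, against 5.07, 5.82 and 5.56 in MyoD+/+ tumours, a difference of -0.46 ± 0.25 (SE). The receptor gene Bmpr1b differed by -0.60 ± 0.35 and the co-receptor gene Eng, which is also a vessel marker, by 0.25 ± 0.19 (SE). Smad1 and Smad5, the transducers, differed by -0.07 ± 0.18 and -0.06 ± 0.29, and the feedback inhibitor Smad6, itself a BMP target, by -0.05 ± 0.18 (SE).

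Other repressors and cofactors of the system likewise had 0 members past the limma test, against 0% of all genes. At an unadjusted p under 0.05 (limma) they had 0, against 5.26% of all genes. Of 11 Hes and Hey repressors, Bhlhe40 and Bhlhe41, 5 were tested, 2 higher and 3 lower in MyoD+/- tumours (median -0.26, or 0.14 with the mean of each gene's probes and 0.04 with no detection filter). The examples were Hes6, which favours neuronal differentiation, at -0.32 ± 0.25, the Notch target Hey1 at -0.34 ± 0.29 and Bhlhe40 at -0.26 ± 0.27 (difference ± SE). Of 20 cofactors and turnover factors, 17 were tested, 13 higher and 4 lower (median 0.15), and in the alternatives the median stayed between 0.03 and 0.35. Runx1t1, a corepressor that binds E proteins, stood at 8.21 and 8.30 in MyoD+/- tumours, against 7.04, 8.12 and 7.89 in MyoD+/+ tumours. Its groups did not overlap, and its difference was 0.57 ± 0.32 (SE; limma adjusted p = 0.945). Its relative Cbfa2t2 differed by 0.35 ± 0.22, the retinoblastoma relative Rbl1 by 0.53 ± 0.30 and Usp1, which removes ubiquitin from Id proteins, by 0.04 ± 0.25 (SE).

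**Figure D5:**
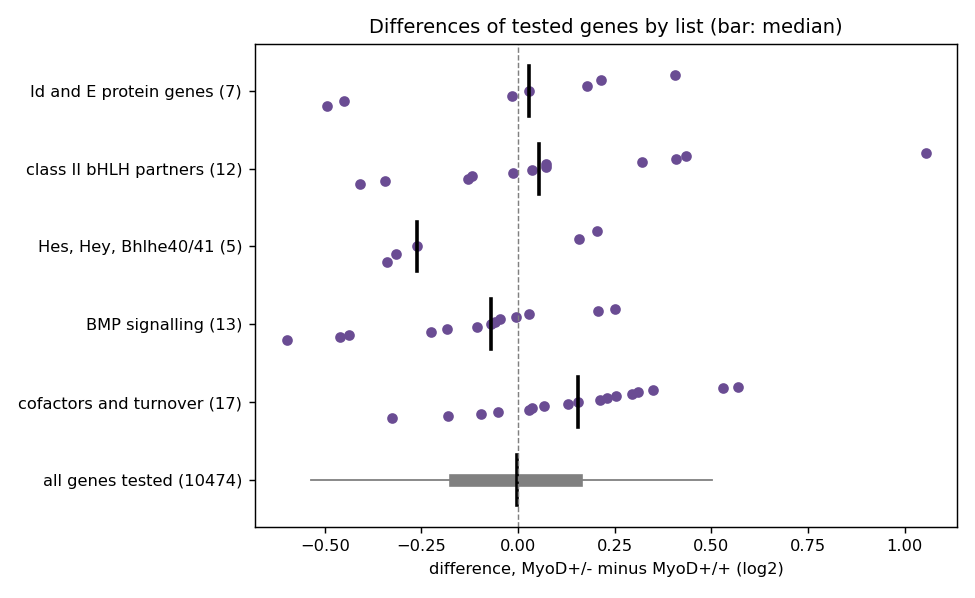
Differences between genotypes (MyoD+/- minus MyoD+/+, log2, horizontal axis) of the tested genes of each list (points; bar at the median), with the middle 50% (thick) and 95% (thin) of all 10474 genes below. Most points lie within the thin line, which runs from -0.54 to 0.50, and Olig3 at 1.05 lies farthest to the right.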

How the data were processed

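Groups follow the genotype that the labels give. RNA was purified with Trizol and RNeasy columns and made into biotin-labelled cRNA, per the labels' protocols. The authors deposited a signal intensity per probe and array, not normalized per the file headers, and a detection p-value beside each. The deposited processed table held log2 values that equalled quantile-normalized log2 signals without background correction to within 5e-09, so these 2 settings are 1 alternative in effect. Scanner software: not given in the sources used here.

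Signals were background-corrected and normalized by the neqc method of limma 3.58.1 (R 4.3.3; offset 16, quantile, log2). A probe was kept where its detection p was under 0.05 on 2 or more arrays (18675 of 45281), and a gene was represented by its brightest kept probe. All 10474 genes, and separately all kept probes, were fitted with limma (lmFit, eBayes, two-sided) by genotype, with Benjamini-Hochberg adjustment over the whole table. Symbols came from the platform annotation (34885 probes with 1 symbol, 18 with several, 10378 unnamed here). Promoters came from RefSeq (GRCm38.p6).

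The members, gene lists and tests were chosen with earlier results of these data known. Named list genes are the 3 of smallest unadjusted p in each pathway list; Smad1, Smad5, Smad6 and Usp1 were added after their values were seen, for their roles.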

Additional observations from a re-analysis of the deposited data

How the results depend on the processing

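The member count past the threshold stayed at 0 in all 16 alternatives (the authors' processed values and no background correction gave identical values). Over all genes, 2 passed with trended, robust variance estimates, and between 0 and 1 with 1 tumour left out (1 without MyoD+/+ tumour 2 and 1 without MyoD+/+ tumour 3). Id1 ranged from -0.59 to -0.32, Id3 from -0.62 to -0.19 and Id2 from 0.20 to 0.62, with no change of sign for the probe that stands for each gene (the other Id2 probe was -0.0077 without MyoD+/+ tumour 3). Changing the filter or the variance estimate leaves these differences as they are by construction, and the title letters give the values found without MyoD+/+ tumour 1, so 10 to 11 values per gene were distinct. At an unadjusted p under 0.05 (limma), between 0 and 2 members counted, Id1 in 10 of 16 settings and Id3 in 2. Where both MyoD+/- tumours were kept, 3.57% (Xist block) to 8.39% (title letter block) of all genes reached that p. Both Id3 counts came from the title letter block and from leaving out MyoD+/+ tumour 1, which give the same difference. The Id1 count includes both settings with identical values. Signs turned for the genes of small difference. With the mean of a gene's probes, Id4 was -0.051, Tcf3 -0.12 and Tcf12 0.22. Tcf12 was 0.11 with median scaling, which moved the median of all genes to 0.14 and gave 0.27 for Tcf4, and 0.044 with array weights. With 1 tumour left out, Id4 ranged from -0.18 to 0.61, Tcf3 from -0.15 to 0.47, Tcf4 from -0.015 to 0.070 and Tcf12 from -0.25 to 0.21. With title letters as a replicate block, where MyoD+/+ tumour 1 is alone in its letter, Id4 was -0.032, Id1 -0.59 and Id3 -0.62 (limma adjusted p = 0.588 for Id1 and Id3), and 0 members passed. The stricter filter left Tcf3 untested. Signals near background limit Id3, Id4, Tcf3 and the dimmer Tcf12 probes. The cause of these changes was not tested.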

Other observations

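The level of Xist, which silences an X chromosome, was 11.06 and 4.64 in MyoD+/- tumours 1 and 2, against 10.58, 4.57 and 4.61 in MyoD+/+ tumours 1 to 3. Between the high tumours, MyoD+/- tumour 1 minus MyoD+/+ tumour 1 was 0.42 for Tcf12, 0.00 for Id3 and -0.35 for Id1. Among the low tumours, MyoD+/- tumour 2 minus the mean of MyoD+/+ tumours 2 and 3 was -0.35 for Tcf12, -0.73 for Id3 and -0.54 for Id1. The remaining members were closer between the high and the low tumours. Id2 differed by 0.35 (high) and 0.33 (low), and Id4 by 0.31 and 0.36. Tcf3 differed by 0.08 in both, and Tcf4 by -0.07 and 0.10. With this split as a block the whole-table fit gave -0.46 for Id1, -0.42 for Id3 and -0.02 for Tcf12, with 0 members past the test. Whether the differences depend on this split was not tested.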
